A study of Homo sapiens with 9 samples.

Results

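SR proteins and heterogeneous nuclear ribonucleoproteins (hnRNPs) are the RNA-binding proteins that steer the choice of splice sites, and the messages of 37 of their genes were followed here in T-cell acute lymphoblastic leukaemia (T-ALL) cells. The genes were chosen by name, as the rows of the deposited count table that belong to the SR, TRA2, hnRNP and PTB families; the rule uses no measured value, but it was set with earlier results of these data known. All 37 were among the 17637 genes of the table, and all 37 passed the filter on low counts that left 15309 genes to be tested. They comprise 11 SR genes (SRSF1 to SRSF11), 2 TRA2 genes, 7 genes of the hnRNP A/B/D group, 4 of the hnRNP F/H group, 3 of the hnRNP U group, the 2 related genes HNRNPR and SYNCRIP (hnRNP Q), the 5 genes HNRNPC, HNRNPK, HNRNPL, HNRNPM and RBMX (hnRNP G), and 3 genes for polypyrimidine tract-binding (PTB) proteins.

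SR proteins bind enhancer sequences in exons through RNA-recognition motifs, and their tails rich in arginine and serine help to bring the spliceosome to nearby splice sites. Proteins of the hnRNP families coat newly made transcripts and often act at silencers, and PTB proteins bind pyrimidine-rich tracts and repress neighbouring exons. Many genes of both kinds limit their own output by splicing in a so-called poison exon that marks the message for nonsense-mediated decay. In several tumour types the transcription factor MYC is known to raise the messages of SRSF1, HNRNPA1, HNRNPA2B1 and PTBP1. The deposited table holds 1 count per gene, so coding and poison-exon forms of a message cannot be told apart in these data.

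The cells were KOPTK1, an established human T-ALL line, and poly(A)-selected RNA was sequenced from 3 groups of 3 libraries. The shcControl libraries carry a control hairpin, named for GFP in the table's columns. The shDHX15 libraries carry a hairpin against DHX15, a DEAH-box RNA helicase known for taking apart the spliceosome that remains on an excised intron, and the shDHX15+MYC libraries carry that hairpin and the MYC coding region, all delivered by lentivirus. The labels give every library the genotype WT, and the stated purpose is to test MYC as a target downstream of DHX15. All libraries come from 1 cell line, the column names give 1 hairpin number for both knockdown groups, and neither the time after transduction nor the use of separate cultures is stated, so that p-values measure the spread between these libraries only. Other effects of that hairpin cannot be told apart from lower DHX15.

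The libraries held 42134302 to 59688062 counts. Levels are in CPM, counts relative to a common library total, scaled by the TMM method, and 3 counts correspond to between 0.0519 and 0.0708 CPM. DHX15 was at 284, 278 and 278 CPM in shcControl, 182, 162 and 156 in shDHX15 and 197, 196 and 192 in shDHX15+MYC, lower in every library with the hairpin. MYC was at 109 ± 0.603, 86.9 ± 3.78 and 7097 ± 153 CPM in the same order of groups (SD, n = 3), so that the third group held far more MYC message than the control. DHX15 itself was higher in shDHX15+MYC than in shDHX15, without overlap (log2 fold change 0.23, edgeR adjusted p = 0.000124). None of the groups has MYC without the hairpin, and the sample titles name no empty vector for MYC. Effects of MYC thus cannot be told apart from those of a weaker knockdown or of its vector. Replicate 1 of shDHX15 stood apart from the other libraries of its group, by a chi-square statistic over genes, divided by its degrees of freedom, of 17.3 and 16.4; it was 4.36 between the other two and 2.71 to 3.19 within the other groups. The sum of 13 measured T-cell markers was 5270 to 5360 CPM in shcControl, 4320 to 4660 in shDHX15 and 2580 to 2620 in shDHX15+MYC, and the sum of 11 markers of immature T-ALL cells was 774 to 796, 544 to 564 and 105 to 110. Those of B cells (6 markers) summed to 51.1 to 53.4, 46.5 to 49.4 and 106 to 110, those of myeloid cells (8 markers) to 1.0 to 1.71, 1.44 to 2.14 and 11.2 to 12.3, and those of adherent and packaging cells (9 markers) to 22.0 to 23.0, 15.2 to 16.4 and 41.2 to 42.1, and erythroid markers (5 in the table) stayed at or under 1.01 in every library. The part that such differences in cell state have in the results was not tested, and in bulk RNA fewer cells of a type and less message per cell cannot be told apart.

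To show the stretches of DNA that lie before the members that moved farthest with added MYC, the 250 bases before the transcription start are given for the 2 members that rose most and the 2 that fell most in shDHX15+MYC against shDHX15, of those with an entry in the promoter table (RefSeq, GRCh38.p14, all on the plus strand, 5′ to 3′). The capitals mark CACGTG, the canonical E-box that MYC with its partner MAX is known to bind. The coordinates are chr11:95066627-95066876 for SRSF8, chr19:8444725-8444974 for HNRNPM, chr14:69766892-69767141 for SRSF5 and chr2:177212544-177212793 for HNRNPA3.
SRSF8: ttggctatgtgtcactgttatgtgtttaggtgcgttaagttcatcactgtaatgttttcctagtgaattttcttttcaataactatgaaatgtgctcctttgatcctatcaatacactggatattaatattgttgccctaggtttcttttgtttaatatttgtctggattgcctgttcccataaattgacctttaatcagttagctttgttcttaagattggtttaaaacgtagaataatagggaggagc
HNRNPM: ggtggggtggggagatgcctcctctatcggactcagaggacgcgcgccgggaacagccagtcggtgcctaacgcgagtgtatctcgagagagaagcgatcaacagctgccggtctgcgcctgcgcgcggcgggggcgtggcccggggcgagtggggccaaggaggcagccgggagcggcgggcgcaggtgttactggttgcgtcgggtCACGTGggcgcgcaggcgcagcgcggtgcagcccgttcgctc
SRSF5: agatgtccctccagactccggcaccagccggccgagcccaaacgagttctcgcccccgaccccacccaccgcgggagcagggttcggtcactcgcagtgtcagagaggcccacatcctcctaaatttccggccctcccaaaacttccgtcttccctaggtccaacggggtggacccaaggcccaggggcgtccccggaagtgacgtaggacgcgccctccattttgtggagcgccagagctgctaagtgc
HNRNPA3: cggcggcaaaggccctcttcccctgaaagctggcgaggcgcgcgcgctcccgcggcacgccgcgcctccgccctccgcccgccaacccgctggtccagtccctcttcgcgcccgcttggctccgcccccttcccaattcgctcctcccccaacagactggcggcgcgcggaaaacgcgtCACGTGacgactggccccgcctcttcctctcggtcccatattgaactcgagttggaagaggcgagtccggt
HNRNPM, whose message was higher with added MYC, and HNRNPA3, whose message was lower, both hold the E-box, starting 42 and 71 bases before the start, and the other two hold none in this window. Entries were found for 34 of the 37 members, with 49 windows of 300 bases (250 before to 50 after a start); HNRNPA1, SRSF2 and TRA2A have none. CACGTG, which reads the same on both strands, was in 9 of the 49 windows, or 18.4%, and in 7.26% of all 35116 windows. The 8 genes with it are HNRNPA3, HNRNPD, HNRNPDL, SYNCRIP, HNRNPH2, HNRNPH3, HNRNPM and HNRNPUL1, and no SR or PTB gene is among them. The related CACGCG, searched with its complement CGCGTG, was in 16 member windows (32.7%, against 11.4% of all), and CCAAT with its complement ATTGG, the motif of the factor NF-Y, in 23 (46.9%, against 34.6%). Matches of different motifs could overlap. The comparison with all windows was not limited to genes expressed in these cells, and a gene can have several windows. Each motif searched was more frequent in the member windows, and no test was made. A match describes these letters only, and whether a factor was bound was not measured.

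Per length of annotated exon, HNRNPA1 was the member with the highest level, at 583 CPM per kb in shcControl and 617 in shDHX15. It was followed in shcControl by SRSF2 (199), SRSF1 (159) and HNRNPK (148), and then by HNRNPF and HNRNPA2B1 (137 and 136), whose levels per length lay closer together than the SD of their libraries. Of the exon bases of SRSF2 and SRSF1 a share of 0.367 and 0.607 overlaps other genes. A share of 0.453 of the 100-base windows of HNRNPA1 also occurs elsewhere. How such reads were counted is not given, so the places of these genes in the order are uncertain. The lowest levels were those of PTBP2 (2.40), the PTB protein of neurons, and SRSF8 (0.308), a gene derived from SRSF2 by retroposition. In shDHX15+MYC HNRNPA1 was at 253 CPM per kb, with HNRNPAB (185) and SRSF2 (176) next. Together the members took 1.65% ± 0.00614 of all counts in shcControl, 1.80% ± 0.0100 in shDHX15 and 1.79% ± 0.00705 in shDHX15+MYC (SD, n = 3). The share was higher in each shDHX15 and each shDHX15+MYC library than in any shcControl library (exact permutation test, 2-sided, p = 0.1 for both, the smallest that 3 libraries against 3 allow), and it did not separate the 2 knockdown groups (p = 0.7). It separated them when mitochondrially encoded genes were left out of the total, at 1.87% ± 0.0102 in shDHX15 and 1.92% ± 0.00681 in shDHX15+MYC, without overlap (SD, n = 3; exact permutation test, p = 0.1). HNRNPA1 alone took 0.275%, 0.305% and 0.143% of the counts. Without HNRNPA1 and HNRNPA3 the members took 1.31%, 1.42% and 1.61%, and the 11 SR genes took 0.322%, 0.341% and 0.408%. Such shares are on the scale of total counts. On that scale the median log2 fold change of all genes against shcControl was 0.06 in shDHX15 and 0.28 in shDHX15+MYC. For genes with an average log2 CPM of 3 or more it was 0.071 and 0.070. Whether the shares of the members rose more than those of other genes was not tested.

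The first comparison asks what the hairpin against DHX15 did to these messages. In shDHX15 against shcControl 12 members rose and 8 fell at an adjusted p under 0.05, and 17 were not called. Of all 15309 genes 45.0% were called, 22.0% higher and 23.0% lower, and of the 10326 better expressed genes (average log2 CPM of 3 or more, which 36 members reach) 55.8% were called, 28.2% higher and 27.6% lower. The members' share called was thus close to that of such genes. The changes were small: the log2 fold changes ran from -0.39 to 0.45 with a median of 0.02 (all genes -0.0047), and no called member moved 1.5-fold or more, against 2.83% of all genes called at least 1.5-fold higher and 4.42% lower. Among the 10326 better expressed genes 172 were called at least 1.5-fold higher and 191 lower. The libraries of the 2 groups did not overlap for 23 members (51.1% of all genes, and 6270 of the 10326 better expressed genes). The number called lower rested on the scaling and on single libraries. Scaling by total counts gave 19 higher and 1 lower, leaving out replicate 3 of shcControl or replicate 2 of shDHX15 gave 4 and 5 lower, and leaving out replicate 1 of shDHX15 gave 16 higher and 9 lower.

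The second comparison sets knockdown cells with added MYC against those without it, and the level of DHX15 differed between them as well. In shDHX15+MYC against shDHX15 17 members rose, 14 fell and 6 were not called. Across all genes 84.7% were called in this comparison, 42.1% higher and 42.6% lower, and of the better expressed genes 87.7% were called, 33.6% higher and 54.1% lower. The members' log2 fold changes ran from -1.29 to 3.49, with a median of -0.0050 (all genes 0.0058, better expressed genes -0.20). Of the called members 4 were at least 1.5-fold higher and 6 at least 1.5-fold lower, against 29.0% and 26.3% of all genes. The 2 groups did not overlap for 31 members, for 85.0% of all genes and for 9033 of the 10326 better expressed genes. In shDHX15+MYC against shcControl 19 members rose, 13 fell and 5 were not called (all genes 84.5% called, 42.0% higher and 42.5% lower; better expressed genes 88.1%, 34.2% and 53.9%), with a median of 0.09 (all genes 0.02) and no overlap for 34 members (87.2% of all genes). Of these called members 4 were at least 1.5-fold higher and 5 lower (28.7% and 25.8% of all genes). Among the 10326 better expressed genes 1621 were called at least 1.5-fold higher and 3153 lower, and these 2 groups did not overlap for 9363. Total-count scaling moved the median of all genes from near 0 to 0.06, 0.20 and 0.28 in the 3 comparisons, and the members' calls to 25 higher and 10 lower in shDHX15+MYC against shDHX15 and to 29 and 8 in shDHX15+MYC against shcControl. The median of the better expressed genes was 0.0046, -0.20 and -0.19 with TMM and 0.071, -0.0025 and 0.070 with total-count scaling. Their calls in shDHX15+MYC against shDHX15 went from 3474 higher and 5587 lower to 4517 and 4564. The direction of a small change with MYC thus depended on the scaling. The 3 comparisons share libraries, so values of a member in them are given side by side.

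**Figure D1:**
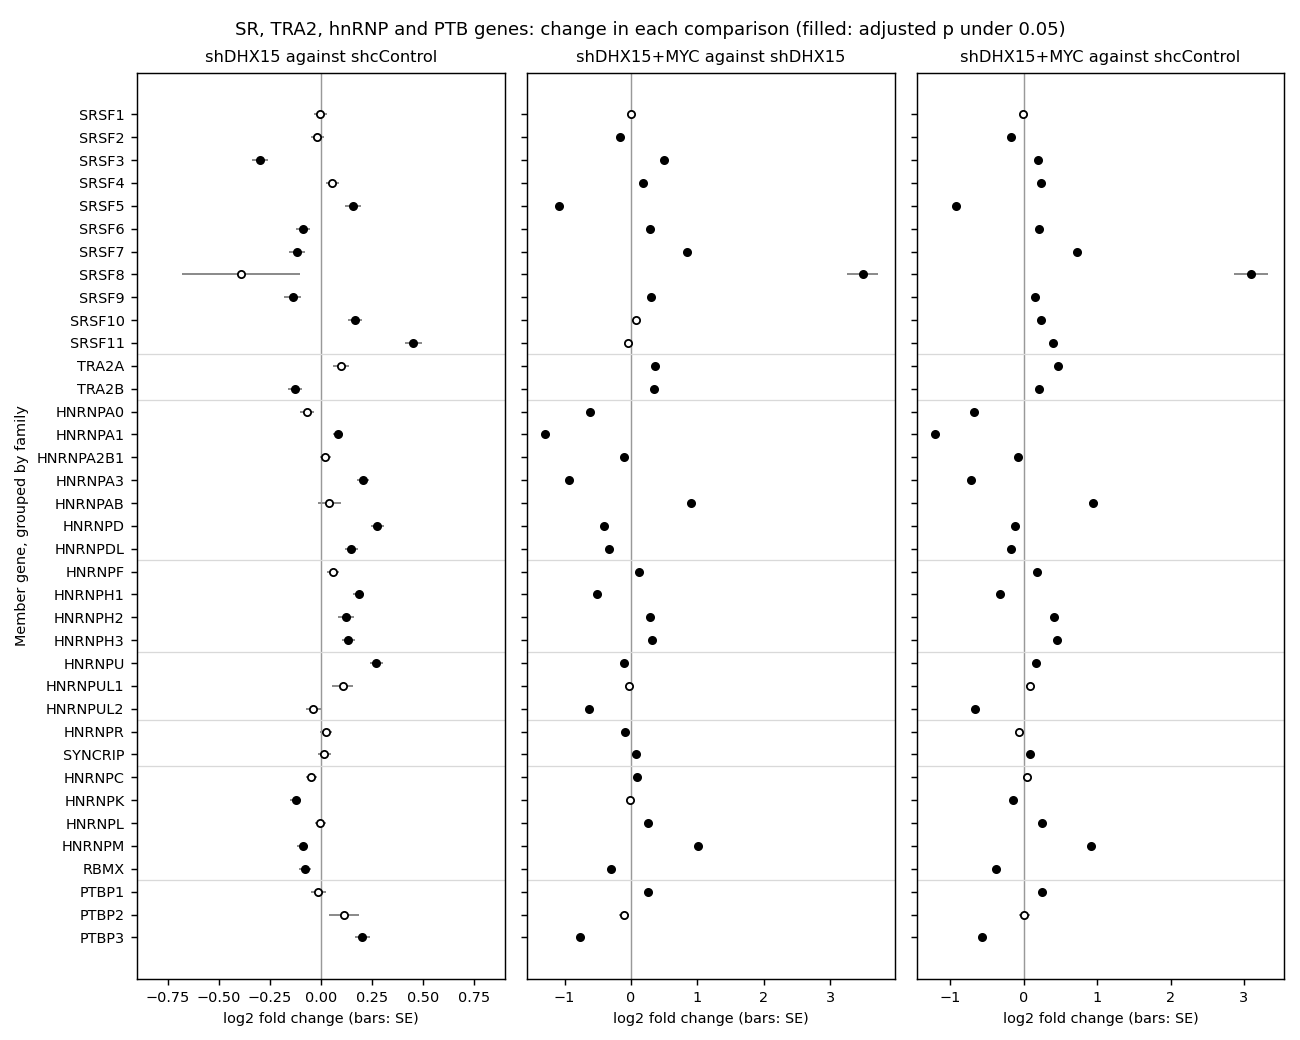
Log2 fold change of each of the 37 members (rows, grouped by family) in the 3 comparisons, with bars for the standard error and filled points for members called at an adjusted p under 0.05; the horizontal scale of the first panel is narrower than that of the others. In shDHX15 against shcControl the points lie between -0.39 and 0.45, and in the comparisons with added MYC the SRSF8 point stands far to the right, at 3.49 and 3.10, with HNRNPA1 farthest to the left at -1.29 and -1.21.

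Among the 11 SR genes 3 rose and 4 fell in the knockdown, 6 rose and 2 fell with added MYC over shDHX15, and 8 rose and 2 fell in shDHX15+MYC against shcControl. Counts by family, here and below, stand beside the shares of all and of better expressed genes given above. SRSF3, the smallest SR protein, which also acts in message export and 3′-end choice (GRCh38, chromosome 6, 36594353 to 36605600, plus strand), was at 410.2, 398 and 414 CPM in shcControl, 359, 316 and 318 in shDHX15 and 463, 469 and 464 in shDHX15+MYC. The shDHX15 libraries were the lowest and the shDHX15+MYC libraries the highest, with no overlap between any groups. SRSF3 fell in the knockdown (-0.30 on the log2 scale, SE 0.0402, edgeR adjusted p = 1.25e-05) and with MYC it rose over shDHX15 (0.49, SE 0.0402, adjusted p = 3.01e-09) and over shcControl (0.19, adjusted p = 0.000269). It had the largest fall of any called member in the knockdown. SRSF7, its close relative with a zinc knuckle (chromosome 2, 38743599 to 38751494, minus strand), was at 271, 265 and 281 CPM in shcControl, 268, 242 and 243 in shDHX15 and 464, 438 and 450.3 in shDHX15+MYC. With MYC every library lay above every other library, while replicate 1 of shDHX15 overlapped shcControl. SRSF7 rose 1.80-fold over shDHX15 (0.85, SE 0.0392, adjusted p = 1.04e-12) and 1.66-fold over shcControl. Its fall in the knockdown was slight (-0.12, adjusted p = 0.0203) and was lost without replicate 1 of shcControl (0.0511), replicate 3 of shcControl (0.106), replicate 2 of shDHX15 (0.0783) or replicate 3 of shDHX15 (0.077).

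SRSF6 and SRSF9 had the same order of groups at smaller size. SRSF6, an SR protein related to SRSF4 and SRSF5 (chromosome 20, 43457928 to 43464247, plus strand), was at 273, 266 and 267 CPM in shcControl, 266, 249 and 244 in shDHX15 and 312, 315 and 302 in shDHX15+MYC. The groups did not overlap, yet the fall in the knockdown (-0.089, SE 0.0345, adjusted p = 0.046) was close to the threshold and was lost when any library was left out except replicate 1 of shDHX15 (adjusted p = 0.0543 to 0.196). With MYC it rose by 0.29 over shDHX15 (SE 0.0344, adjusted p = 3.87e-07). SRSF9, a short relative of SRSF1 (chromosome 12, 120461668 to 120469793, minus strand), was at 199.7, 199 and 198 CPM in shcControl, 179, 169 and 194 in shDHX15 and 212, 230.5 and 223 in shDHX15+MYC. It was lowest in shDHX15 and highest with MYC, without overlap, and its log2 changes were -0.14 in the knockdown (SE 0.0426, adjusted p = 0.013, or 0.0665 when replicate 2 of shDHX15 is left out) and 0.30 with MYC over shDHX15 (SE 0.0424, adjusted p = 4.35e-06). Of the exon bases of SRSF9 a share of 0.462 overlaps GATC on the opposite strand, which was at 143, 123 and 138 CPM; whether the counting used strand is not given in the sources used here, so the 2 genes may share reads. The falls of SRSF6, SRSF7 and SRSF9 in the knockdown were also lost with total-count scaling (0.637, 0.296 and 0.17), and those of SRSF6 and SRSF7 with only the 2 groups fitted (0.159 and 0.0804). SRSF4 was not called in the knockdown and rose by 0.18 over shDHX15 (SE 0.0297, adjusted p = 2.46e-05), from 239 to 270.4 CPM.

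SRSF5 moved the other way from SRSF3, SRSF6, SRSF7 and SRSF9. Its libraries (chromosome 14, 69726900 to 69772005, plus strand) were at 455, 439.7 and 445 CPM in shcControl, 532, 468 and 492 in shDHX15 and 237, 238 and 229.8 in shDHX15+MYC. The shDHX15+MYC libraries held the least and the shDHX15 libraries the most, and no groups overlapped. SRSF5 rose in the knockdown (0.16, SE 0.0384, adjusted p = 0.00316) and fell 2.12-fold with MYC against shDHX15 (-1.08, SE 0.0390, adjusted p = 3.27e-14) and 1.90-fold against shcControl. SRSF2, an enhancer-binding SR protein that is recurrently mutated in myeloid neoplasms, also fell with MYC, from 591 to 529.5 CPM (-0.16, adjusted p = 0.000164), but total-count scaling turned this change to 0.039. A share of 0.367 of its exon bases overlaps MFSD11 on the opposite strand, at 333, 377 and 346 CPM. SRSF1, the SR protein best known as an oncogene product, was at 526, 530.2 and 535 CPM in shcControl, 555, 516 and 516 in shDHX15 and 529, 522 and 530.3 in shDHX15+MYC. Its 3 groups overlapped, and its log2 changes of -0.0041, -0.0050 and -0.0092 (SE 0.0309, 0.0309 and 0.0310) were not called. With total-count scaling SRSF1 was called higher with MYC, by 0.19 over shDHX15 (adjusted p = 1.71e-05) and 0.26 over shcControl (6.08e-07). A share of 0.607 of its exon bases overlaps 2 loci without gene names, 1 on each strand.

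SRSF11 and SRSF10 rose in the knockdown. SRSF11, an SR-related protein of early spliceosomal complexes (chromosome 1, 70205682 to 70253052, plus strand), was at 238, 239 and 237 CPM in shcControl, 353, 305 and 319 in shDHX15 and 318, 317 and 309 in shDHX15+MYC. Both knockdown groups lay above every shcControl library and overlapped each other. Its log2 change of 0.45 (SE 0.0416, adjusted p = 2.01e-07) was the largest rise of any member in this comparison, and with MYC it was 0.40 against shcControl (adjusted p = 7.83e-08) and not called against shDHX15 (-0.048, adjusted p = 0.284). SRSF10, known for turning into a general splicing repressor when it loses its phosphates, rose from 283 to 318 CPM in the knockdown (0.17, adjusted p = 0.000665) and was at 334 with MYC (0.24 against shcControl, adjusted p = 4.3e-06). Against shDHX15 the groups overlapped and SRSF10 was not called (0.071, adjusted p = 0.0583). That change was called with DESeq2 (0.00347), total-count scaling (7.74e-07) and counts thinned to the smallest total (0.0268). It was also called without replicate 1 of shDHX15 (0.000341) or replicate 1 of shDHX15+MYC (0.0472). SRSF8 (chromosome 11, 95067197 to 95071224, plus strand) was at 1.49, 0.637 and 1.60 CPM in shcControl, 0.790, 0.709 and 1.40 in shDHX15 and 10.7, 10.3 and 11.2 in shDHX15+MYC. It was scarce in both groups without added MYC, which overlapped, and every shDHX15+MYC library was above 10 CPM. The rise over shDHX15 was 11.2-fold (3.49, SE 0.232, adjusted p = 1.72e-10), the largest of any member, and with MYC its level per length was still 2.67 CPM per kb against 176 for SRSF2.

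Both TRA2 genes, which encode SR-like activators that bind GAA-rich exons, rose with added MYC. TRA2A (chromosome 7, 23504780 to 23532041, minus strand) was at 68.5, 67.8 and 71.3 CPM in shcControl, 76.5, 70.7 and 74.9 in shDHX15 and 96.1, 95.5 and 94.2 in shDHX15+MYC. Its shDHX15+MYC libraries lay above all others, with a log2 change of 0.36 over shDHX15 (SE 0.0392, adjusted p = 1.25e-07) and 0.46 over shcControl, and the knockdown change was not called (0.10, adjusted p = 0.059). TRA2B (chromosome 3, 185915906 to 185938136, minus strand) was at 312, 302 and 305 CPM in shcControl, 296, 272 and 273 in shDHX15 and 359, 353 and 354 in shDHX15+MYC. It was lowest in shDHX15 and highest with MYC, with no overlap. TRA2B fell in the knockdown (-0.13, SE 0.0338, adjusted p = 0.00469, lost with total-count scaling at 0.14) and rose with MYC by 0.34 over shDHX15 (SE 0.0337, adjusted p = 3.58e-08).

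**Figure D2:**
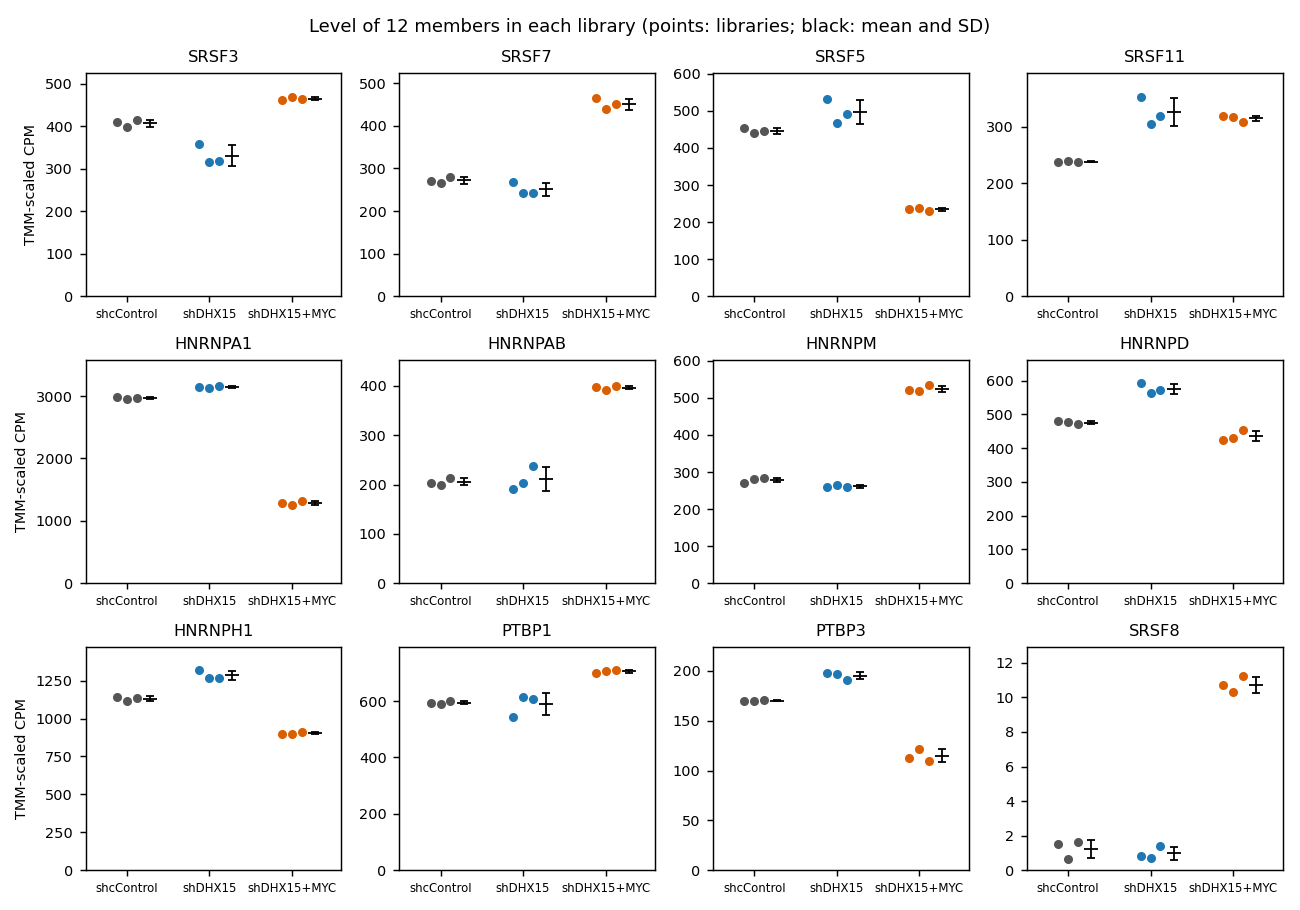
TMM-scaled CPM of 12 members in each of the 9 libraries (coloured points by group on a linear axis from 0, black marks for the mean and SD of 3 libraries). SRSF3, SRSF7, HNRNPAB, HNRNPM, PTBP1 and SRSF8 are highest in shDHX15+MYC, SRSF5, HNRNPA1, HNRNPD, HNRNPH1 and PTBP3 are lowest there, and SRSF11 is above shcControl in both knockdown groups.

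The 7 genes of the hnRNP A/B/D group encode proteins that bind UAG- or AU-rich RNA and often silence exons or set message stability. Of these 4 rose and 0 fell in shDHX15 against shcControl (better expressed genes 28.2% higher and 27.6% lower). In both comparisons of shDHX15+MYC 1 rose and 6 fell, where 54.1% and 53.9% of the better expressed genes were called lower. The falls depended on the scaling. With total-count scaling HNRNPA2B1, HNRNPD and HNRNPDL turned to 0.18, 0.14 and 0.086 against shcControl, and HNRNPA2B1 to 0.093 against shDHX15. HNRNPA1, the best studied silencer of the group (chromosome 12, 54280193 to 54287088, plus strand), was at 2990, 2951 and 2966 CPM in shcControl, 3143, 3132 and 3157 in shDHX15 and 1281, 1261 and 1318 in shDHX15+MYC. The shDHX15 libraries were slightly above shcControl, and the shDHX15+MYC libraries were far below both. HNRNPA1 rose 1.06-fold in the knockdown (0.083, SE 0.0238, adjusted p = 0.0092) and fell 2.44-fold with MYC against shDHX15 (-1.29, SE 0.0242, adjusted p = 7.34e-18) and 2.31-fold against shcControl. HNRNPA3 (chromosome 2, 177212563 to 177223958, plus strand) was at 653, 645 and 651 CPM in shcControl, 771, 737 and 735 in shDHX15 and 382, 402 and 396 in shDHX15+MYC. No groups overlapped, with shDHX15 highest and shDHX15+MYC lowest. Its log2 changes were 0.20 in the knockdown (SE 0.0293, adjusted p = 2.72e-05) and -0.93 with MYC over shDHX15 (SE 0.0296, adjusted p = 6.61e-15).

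HNRNPA1 and HNRNPA3 are the 2 members with much sequence in common with other loci: of their 100-base windows a share of 0.453 and 0.213 also occurs in a gene elsewhere, where the other members are under 0.07. In shDHX15+MYC against shDHX15 the median log2 fold change was 0.04 over 13243 genes with no such window, -0.58 over 263 genes with a share of 0.2 to 0.8 and -2.82 over 80 genes with a higher share. The same medians in the knockdown were -0.0047, 0.02 and 0.03. The part that shared sequence has in the falls of HNRNPA1 and HNRNPA3 with MYC was not tested. In the same fit of all genes, the 35 members other than HNRNPA1 and HNRNPA3 had 10 called higher and 8 lower in the knockdown. They had 17 and 12 with MYC over shDHX15, and 19 and 11 with MYC over shcControl.

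HNRNPD and HNRNPDL, neighbours on chromosome 4 that encode the AU-rich element binder AUF1 and its relative, had the same order of groups. HNRNPD (chromosome 4, 82352498 to 82374503, minus strand) was at 479.6, 477 and 470.4 CPM in shcControl, 593, 563 and 571 in shDHX15 and 426, 431 and 453 in shDHX15+MYC. Every shDHX15 library was above every shcControl library, and every shDHX15+MYC library was below it. The log2 changes were 0.28 in the knockdown (SE 0.0308, adjusted p = 1.77e-06), -0.40 with MYC over shDHX15 (SE 0.0309, adjusted p = 1.43e-09) and -0.12 against shcControl. HNRNPDL (chromosome 4, 82422564 to 82430408, minus strand) was at 382, 386 and 391 CPM in shcControl, 443, 414 and 426 in shDHX15 and 335, 339 and 350.4 in shDHX15+MYC, again without overlap, and it rose by 0.15 in the knockdown (SE 0.0314, adjusted p = 0.00101) and fell by 0.33 with MYC against shDHX15 (SE 0.0314, adjusted p = 2.88e-08). Against shcControl the falls of HNRNPD and HNRNPDL in shDHX15+MYC turned to 0.14 and 0.086 with total-count scaling.

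HNRNPAB was the member of this group that rose with MYC. Its protein binds both RNA and promoter DNA (chromosome 5, 178204507 to 178211163, plus strand), and its libraries were at 202, 199.9 and 213 CPM in shcControl, 191, 204 and 238 in shDHX15 and 397, 392 and 400.0 in shDHX15+MYC. The shDHX15+MYC libraries lay above all others, while shDHX15 and shcControl overlapped and the shDHX15 libraries were spread widely. HNRNPAB rose 1.88-fold over shDHX15 (0.91, SE 0.0556, adjusted p = 5.09e-11) and 1.93-fold over shcControl. HNRNPA0, which is encoded without introns and binds AU-rich elements (chromosome 5, 137745651 to 137754376, minus strand), was at 405, 412 and 406 CPM in shcControl, 386, 381 and 399 in shDHX15 and 242, 254 and 266 in shDHX15+MYC. It was lowest with MYC, and it fell by 0.61 against shDHX15 (SE 0.0343, adjusted p = 1.5e-11). HNRNPA2B1, a reader of export and splicing signals, moved little, from 1281 to 1191 CPM with MYC (-0.10, adjusted p = 0.00108), and total-count scaling turned this to 0.093.

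The 4 genes of the hnRNP F/H group encode binders of G-rich runs near splice and poly(A) sites. In the knockdown 3 rose and 0 fell, and in both comparisons with MYC 3 rose and HNRNPH1 fell. HNRNPH1 (chromosome 5, 179614178 to 179634784, minus strand), the most abundant of them by count, was at 1145, 1117 and 1134 CPM in shcControl, 1318, 1270 and 1269 in shDHX15 and 898, 901 and 911 in shDHX15+MYC. It was highest in shDHX15 and lowest with MYC, with no overlap between groups. HNRNPH1 rose by 0.18 in the knockdown (SE 0.0258, adjusted p = 2.03e-05) and fell with MYC by 0.51 against shDHX15 (SE 0.0259, adjusted p = 3.91e-12) and by 0.33 against shcControl. HNRNPH3 rose in steps, from 178 ± 3.36 CPM in shcControl to 196 ± 2.80 in shDHX15 and 244 ± 6.97 with MYC (SD, n = 3; adjusted p = 0.00247 for the first step and 3.88e-08 for the second). HNRNPH2 went from 64.7 ± 0.509 to 70.4 ± 2.02 and 86.3 ± 2.68 CPM, and its knockdown call (adjusted p = 0.0165) was lost without replicate 2 of shcControl (0.0509) or replicate 3 of shDHX15 (0.0701). The readthrough gene RPL36A-HNRNPH2, which covers part of HNRNPH2, fell in the knockdown from 499 to 351 CPM, next to 492 and 340.2 for the ribosomal protein gene RPL36A. HNRNPF was not called in the knockdown and rose from 464 to 506 CPM with MYC (0.13, adjusted p = 0.00066).

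HNRNPU, a scaffold protein of the nuclear matrix that binds chromatin and RNA (chromosome 1, 244840638 to 244864560, minus strand), was at 777, 773 and 766 CPM in shcControl, 875, 959 and 958 in shDHX15 and 860.3, 872 and 869.5 in shDHX15+MYC. Both knockdown groups were above shcControl, and the shDHX15+MYC libraries lay below those of shDHX15. It rose by 0.27 in the knockdown (SE 0.0326, adjusted p = 4.11e-06), whereas the fall with MYC was small (-0.10, SE 0.0326, adjusted p = 0.00796), was lost with DESeq2 (0.0829) and without the second shDHX15 library (0.0699), and turned to 0.097 with total-count scaling. A share of 0.156 of its exon bases overlaps COX20 on the opposite strand, which went from 84.2 to 108 and 61.6 CPM. HNRNPUL2, an HNRNPU-like protein of the DNA damage response (chromosome 11, 62712630 to 62727472, minus strand), was at 495, 489 and 483 CPM in shcControl, 447, 487 and 495 in shDHX15 and 299.6, 309 and 314 in shDHX15+MYC. The first 2 groups overlapped and the shDHX15+MYC libraries were below them, a fall of 0.63 against shDHX15 (SE 0.0359, adjusted p = 1.83e-11). The table also lists the readthrough gene HNRNPUL2-BSCL2, with which it shares 0.441 of its exon bases, at 402, 405 and 278 CPM, so the reads of the 2 genes cannot be told apart. HNRNPUL1 was at 529, 653 and 633 CPM in shDHX15 against 564, 559.5 and 565 in shcControl: replicate 1 lay below the control and the other two above it. The change was not called with all libraries (0.10, adjusted p = 0.119) and was called without replicate 1 of shDHX15 (0.19, adjusted p = 7.76e-10).

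HNRNPR and SYNCRIP, a pair of related proteins that act in message transport and stability, moved little. Neither was called in the knockdown (0.022 and 0.016), and with MYC over shDHX15 their changes were -0.083 and 0.070 (adjusted p = 0.0152 and 0.0434). Both calls were weak. That of HNRNPR was lost with DESeq2 (0.163), with only the 2 groups fitted (0.0619) and without replicate 2 of shDHX15 (0.0514) or replicate 2 of shDHX15+MYC (0.0646), and it turned to 0.12 with total-count scaling, and that of SYNCRIP was lost with no filter on low counts, with single-locus genes only, with only the 2 groups fitted, and without any of the shcControl or shDHX15+MYC libraries or replicate 3 of shDHX15 (0.0549 to 0.301).

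Of the 5 remaining hnRNP genes, 0 rose and 3 fell in the knockdown, and 3 rose and 1 fell with MYC over shDHX15. HNRNPM, which binds GU-rich introns and is known from epithelial to mesenchymal transition (chromosome 19, 8444767 to 8489114, plus strand), was at 272, 281 and 283 CPM in shcControl, 259, 265 and 259.7 in shDHX15 and 521, 518 and 534 in shDHX15+MYC. The shDHX15+MYC libraries held far more than any other and the shDHX15 libraries were just below shcControl. HNRNPM rose 2.00-fold with MYC over shDHX15 (1.00, SE 0.0289, adjusted p = 1.61e-15) and 1.88-fold over shcControl. Its fall in the knockdown (-0.091, SE 0.0289, adjusted p = 0.0163) was lost without replicate 2 or replicate 3 of shcControl (0.0641 and 0.0779), with only the 2 groups fitted (0.0846) and with total-count scaling (0.501). HNRNPK, a poly(C)-binding protein with KH domains (chromosome 9, 83968083 to 83980616, minus strand), was at 763, 748 and 760.2 CPM in shcControl, 676, 704 and 701 in shDHX15 and 684, 678 and 698 in shDHX15+MYC. It was lower in both knockdown groups, which overlapped, with log2 changes of -0.13 in the knockdown (SE 0.0272, adjusted p = 0.00115, lost with total-count scaling at 0.076) and -0.14 in shDHX15+MYC against shcControl, which that scaling turned to 0.12. RBMX, which is encoded on the X chromosome and binds nascent transcripts, fell from 421 to 344 CPM with MYC (-0.29, SE 0.0292, adjusted p = 4.67e-08). It was at 445 in shcControl, and its knockdown call (adjusted p = 0.0355) was lost without replicate 2 or replicate 3 of shcControl, replicate 3 of shDHX15 or replicate 2 of shDHX15+MYC (0.051 to 0.121), with only the 2 groups fitted (0.128) and with total-count scaling (0.754). HNRNPL, which binds CA repeats and controls exons of the T-cell gene CD45, was not called in the knockdown and rose from 377 to 448 CPM with MYC (0.25, adjusted p = 1.11e-07). HNRNPC, a binder of U-rich tracts, went from 682 to 726 CPM (0.088, adjusted p = 0.00621, 0.0528 without replicate 3 of shDHX15+MYC).

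The PTB genes parted. PTBP1, the form of most tissues (chromosome 19, 797075 to 812327, plus strand), was at 594, 589.8 and 599.5 CPM in shcControl, 545, 613 and 608 in shDHX15 and 699.5, 706 and 712 in shDHX15+MYC. The first 2 groups overlapped, and the shDHX15+MYC libraries were above both. PTBP1 rose by 0.26 with MYC over shDHX15 (SE 0.0369, adjusted p = 3.91e-06) and by 0.25 over shcControl. PTBP3, a form known from blood cells (chromosome 9, 112217716 to 112333667, minus strand), was at 170.1, 169.5 and 170.5 CPM in shcControl, 198, 197 and 191 in shDHX15 and 113, 122 and 109.6 in shDHX15+MYC. It was highest in shDHX15 and lowest with MYC, without overlap: it rose by 0.20 in the knockdown (SE 0.0372, adjusted p = 0.000309) and fell 1.70-fold with MYC against shDHX15 (-0.77, SE 0.0377, adjusted p = 2.36e-12). PTBP2, whose message PTBP1 is known to repress, was at 30.2, 31.1 and 31.8 CPM in shcControl, 38.0, 30.2 and 32.4 in shDHX15 and 33.3, 29.7 and 30.6 in shDHX15+MYC. Its groups overlapped and no change was called.

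Ratios of read counts between related members within a library do not depend on scaling between libraries. The ratio of SRSF3 to SRSF7 was 1.51, 1.499 and 1.47 in shcControl, 1.34, 1.31 and 1.31 in shDHX15 and 0.996, 1.07 and 1.03 in shDHX15+MYC. The 3 groups did not overlap. HNRNPA1 over HNRNPA2B1 was 2.34, 2.35 and 2.36, then 2.41, 2.49 and 2.46, and then 1.09, 1.07 and 1.08 (1.08 ± 0.0101, SD, n = 3). A count ratio does not remove differences in the counting of shared sequence, and a share of 0.453 of the windows of HNRNPA1 is shared. The part that this has in the ratio was not tested. PTBP1 over PTBP3 was 3.49, 3.48 and 3.52 in shcControl, 2.75, 3.11 and 3.19 in shDHX15 and 6.21, 5.78 and 6.49 in shDHX15+MYC. For PTBP1 over PTBP3 the 3 shDHX15+MYC libraries lay above every library of the other groups. HNRNPH1 over HNRNPH2 was 17.4 to 17.8 in shcControl, 17.5 to 18.7 in shDHX15 and 10.2 to 10.7 in shDHX15+MYC, and HNRNPF over HNRNPH1 was 0.384 to 0.406, 0.345 to 0.375 and 0.550 to 0.570. TRA2A over TRA2B differed already in the knockdown, at 0.220 to 0.234 in shcControl, 0.259 to 0.274 in shDHX15 and 0.266 to 0.271 in shDHX15+MYC. For 15 pairs and 3 comparisons 45 exact permutation tests were made (2-sided). With 3 libraries against 3 no exact permutation test can go below p = 0.1, or 0.122 after adjustment over the 45, so no ratio could pass the threshold and the lack of overlap is given as a description.

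**Figure D3:**
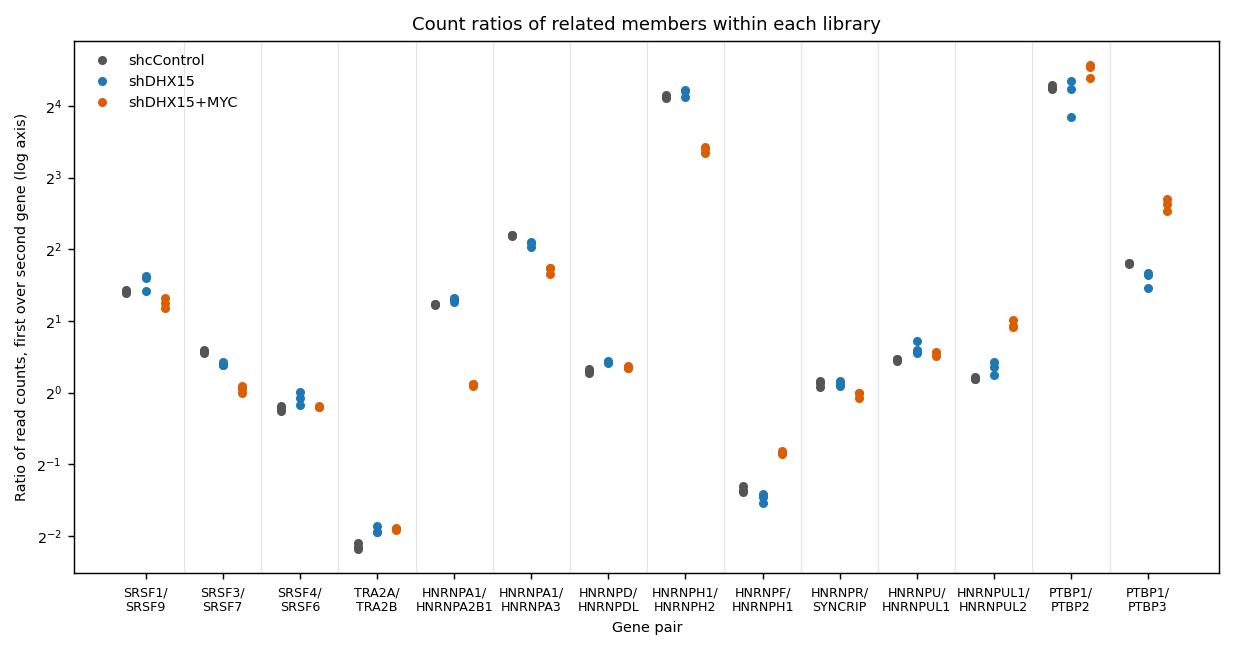
Ratio of read counts between 14 pairs of related members (logarithmic axis), with 1 point for each library, coloured by group; SRSF2/SRSF8 is left out because SRSF8 was scarce. The shDHX15+MYC points of HNRNPA1/HNRNPA2B1 and HNRNPH1/HNRNPH2 lie below those of the other groups and those of PTBP1/PTBP3, HNRNPF/HNRNPH1 and HNRNPUL1/HNRNPUL2 above them.

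Other genes of the splicing machinery were counted in 7 lists, beside the shares called among all genes given above. Among 22 SR-related and accessory genes 14 rose and 2 fell in the knockdown (median log2 fold change 0.20; all genes -0.0047), 15 rose and 6 fell with MYC over shDHX15 (median 0.31; all genes 0.0058), and 15 rose and 3 fell in shDHX15+MYC against shcControl (median 0.49; all genes 0.02). PPIG, a cyclophilin with an arginine and serine-rich tail, went from 44.8 ± 1.31 to 71.2 ± 2.56 and 129 ± 0.743 CPM (SD, n = 3), a rise in each comparison (adjusted p = 1.11e-09, 5.71e-13 and 3.92e-16). PNN, a speckle protein, rose by 0.49 in the knockdown, and BCLAF1 rose by 0.37 in the knockdown and 0.85 with MYC; 0.23 of the windows of BCLAF1 are shared with other loci. LUC7L3, a U1 snRNP-associated protein, rose from 248 to 366 CPM in the knockdown and was at 253 with MYC (-0.53 against shDHX15). ARGLU1 and NKTR rose in the knockdown (0.24 and 0.41) and fell with MYC over shDHX15 (-1.33 and -0.90), ARGLU1 from 298 ± 5.35 to 119 ± 1.24 CPM.

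Of 15 kinases, phosphatases and importers that act on SR or hnRNP proteins, 9 rose and 3 fell in the knockdown (median 0.10). With MYC 2 rose and 8 fell over shDHX15 (median -0.073), and 5 rose and 6 fell against shcControl. SRPK2, a kinase that phosphorylates the arginine and serine-rich tails, went from 211 ± 1.29 CPM in shcControl and 225 ± 1.56 in shDHX15 to 81.2 ± 1.72 with MYC (SD, n = 3), a fall of 1.47 against shDHX15 (SE 0.0307, adjusted p = 2.58e-17). The related SRPK3 and the phosphatase subunit PPP1CC fell with MYC as well (-0.84 and -0.58). In the knockdown PRPF4B, a kinase of the spliceosome, and TNPO1, an importer of hnRNP A1, rose by 0.42 and 0.50, and the nuclear kinase CLK2 fell by 0.25. Of 7 genes for arginine methyltransferases, which modify hnRNP proteins and Sm proteins, and for the PRMT5 partner WDR77, which is no methyltransferase itself, 0 rose and 5 fell in the knockdown (median -0.20), 4 rose and 1 fell with MYC over shDHX15 (median 0.38), and 3 rose and 1 fell against shcControl (median 0.088). PRMT5 went from 75.6 ± 0.743 CPM in shcControl to 57.1 ± 1.5 in shDHX15 and 167 ± 1.27 with MYC (adjusted p = 9.13e-08 and 6.07e-17), and WDR77 from 52.0 ± 1.64 to 39.4 ± 1.17 and 81.6 ± 1.52 (SD, n = 3). PRMT6 fell in the knockdown (-0.42), PRMT1 rose with MYC over shDHX15 (0.79), and PRMT7 fell against shcControl in shDHX15+MYC (-1.05).

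Of 34 core snRNP protein genes, which build the spliceosome itself, 4 rose and 18 fell in the knockdown (median -0.12), 21 rose and 11 fell with MYC over shDHX15 (median 0.34), and 19 rose and 11 fell against shcControl (median 0.18). EFTUD2, a GTPase of the U5 snRNP, fell from 130.5 ± 1.34 to 91.1 ± 4.36 CPM in the knockdown and was at 134 ± 2.79 with MYC (SD, n = 3; adjusted p = 1.23e-08 and 1.8e-10). SF3A3 fell by 0.41 in the knockdown, whereas SF3B1, the U2 snRNP protein often mutated in leukaemia, rose by 0.30. With MYC over shDHX15, SF3B4, SF3A1 and SF3A3 rose by 1.27, 0.95 and 1.01, and SF3B3 rose by 0.65 over shcControl. Of 15 genes of nonsense-mediated decay, the route that removes poison-exon messages, 4 rose and 3 fell in the knockdown (median 0.02), 10 rose and 3 fell with MYC over shDHX15 (median 0.44), and 10 rose and 5 fell against shcControl (median 0.55). UPF2 went from 34.0 ± 0.639 to 41.6 ± 2.46 and 82.1 ± 1.62 CPM and UPF3B from 22.6 ± 0.862 to 25.8 ± 1.12 and 69.8 ± 1.11 (SD, n = 3), and both rose in each comparison (adjusted p with MYC over shDHX15 = 1.5e-12 and 1.66e-14). Of the exon junction genes, RBM8A and MAGOH fell in the knockdown (-0.16 and -0.24) and rose with MYC over shDHX15 (0.44 and 1.32), and CASC3 rose in the knockdown (0.16). SMG5, a decay factor that binds phosphorylated UPF1, rose by 0.64 with MYC over shcControl.

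**Figure D4:**
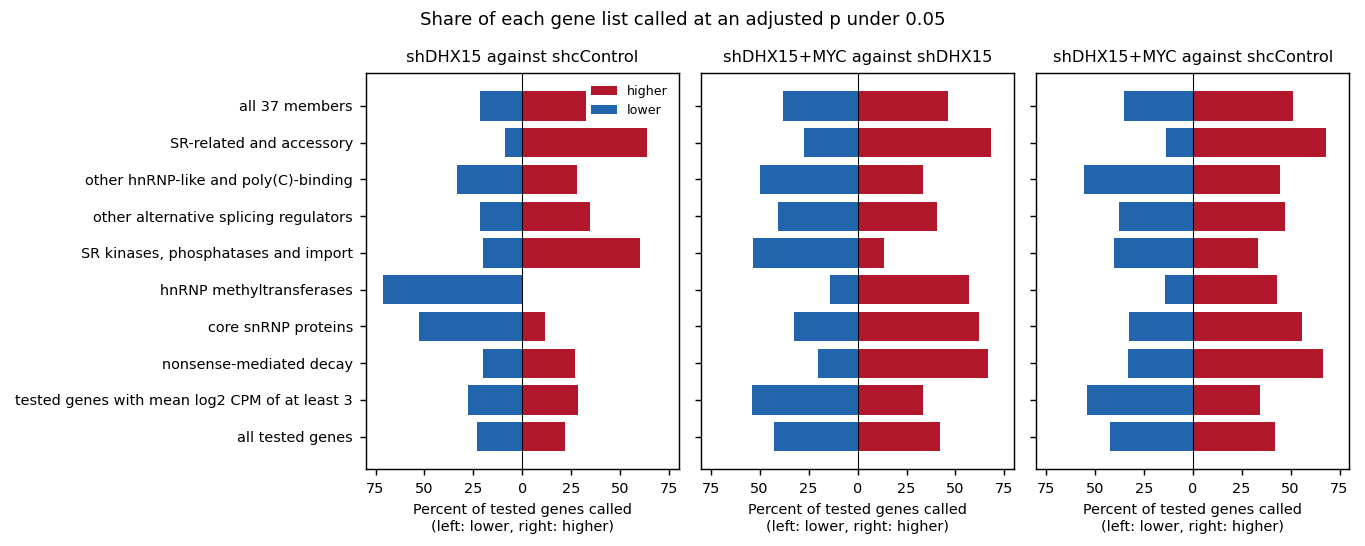
Percent of tested genes called higher (right, red) and lower (left, blue) at an adjusted p under 0.05 in each list and comparison, with the better expressed and all tested genes in the bottom bars. The SR-related genes (14 of 22) and the SR kinase list (9 of 15) have the longest bars to the right in the knockdown, and the methyltransferases with WDR77 (5 of 7) and core snRNP proteins (18 of 34) the longest to the left.

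Of 18 tested hnRNP-like and poly(C)-binding genes 5 rose and 6 fell in the knockdown (median 0.02), 6 rose and 9 fell with MYC over shDHX15 (median -0.16), and 8 rose and 10 fell against shcControl (median -0.26). RBM3, a cold-inducible RNA-binding protein, fell from 249 ± 5.87 to 158 ± 2.41 CPM in the knockdown (SD, n = 3), and TAF15 and HNRNPLL, the latter an hnRNP L relative that acts on CD45 splicing in T cells, rose by 0.34 and 0.25. With MYC over shDHX15 SFPQ, a paraspeckle protein, rose 2.38-fold from 316 ± 21.2 to 752 ± 10.4 CPM (adjusted p = 3.66e-15), and CIRBP and PCBP3 fell by 0.74 and 2.49. PCBP4 fell by 1.63 in shDHX15+MYC against shcControl. Of 32 other regulators of alternative splicing 11 rose and 7 fell in the knockdown (median 0.07), 13 rose and 13 fell with MYC over shDHX15 (median 0.0081), and 15 rose and 12 fell against shcControl (median 0.06). RBM25 and FUBP1 rose by 0.50 and 0.42 in the knockdown and QKI fell by 0.43. With MYC over shDHX15 RBM6 and MBNL1 fell by 0.81 and 0.73. U2AF1, the subunit that reads the AG of the 3′ splice site, was listed at 3.61 ± 0.309 CPM with MYC against 83.2 ± 2.35 in shDHX15 and 92.8 ± 2.34 in shcControl. A share of 0.903 of its windows occurs at another locus, in the range where the median of all such genes was -2.82, so its count is uncertain.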

How the data were processed

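Messenger RNA was measured in 9 KOPTK1 libraries read from both ends for 150 bases. The values are raw read counts per gene, which the authors deposited unscaled in a table of 17637 symbols; HISAT2 2.2.1, FastQC 0.11.9, DESeq2 1.32.0 and the build hg38 stand in the submitters' processing notes. How reads were counted, with which annotation and whether by strand is not given in the sources used here. Columns were joined to samples by name, those naming a GFP hairpin as shcControl and those naming hairpin 1, with or without MYC, as the other groups.

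Genes kept by filterByExpr (15309) were fitted with edgeR 4.0.16 in R 4.3.3 (TMM scaling, quasi-likelihood test, 1 mean per group, all 9 libraries, no block, 2-sided), with Benjamini-Hochberg adjustment over all 15309 genes and a threshold of 0.05. Every adjusted p of a fold change is from this model unless another is named. The steps were run on simulated counts with changes planted in a small part of the genes, in shDHX15 against shcControl only. That run cannot check the scaling in the comparisons with MYC, where most genes were called. Limits from counts cover counting error only. DESeq2 1.42.0 and the other alternatives appear in the closing section. Coordinates, exon lengths and shared sequence (100-base windows every 50 bases) come from GENCODE v29 (GRCh38), which matched 95.1% of symbols, and promoter windows from RefSeq (GRCh38.p14).

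The members and lists were chosen with earlier results of these data known. The rule for names takes, in each comparison, up to 6 called members at either end of the fold changes among those without overlap, members called in opposite directions in the first 2 comparisons, and up to 3 genes of each list by adjusted p; other members are given more briefly. The better expressed background was added after the data had been seen. Of the lists' 146 symbols 145 were in the table.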

Additional observations from a re-analysis of the deposited data

How the results depend on the processing

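Of the 20 members called in shDHX15 against shcControl, 12 kept their call and direction under every alternative run (DESeq2, total-count scaling, no filter on low counts, the replicate block, only the 2 groups compared, single-locus genes only where a member is one, counts thinned to the smallest total, and each library left out), and 8 lost the call under at least one. Of the 31 called in shDHX15+MYC against shDHX15, 25 kept it, 4 lost it under some and 4 turned in direction with total-count scaling; of the 32 called in shDHX15+MYC against shcControl, 26 kept it, 2 lost it and 5 turned; a member can have lost the call under one alternative and turned under another. The replicate block, tried because the labels number the libraries alike, changed no count: 12 higher and 8 lower, 17 and 14, and 19 and 13. Deviations of libraries with the same number did not run together (r from -0.0239 to 0.0412 over genes). Total-count scaling gave 19 higher and 1 lower in the first comparison and 29 and 8 in the third, and fitting only the 2 groups gave 4 lower in the first. Leaving out 1 library gave 11 to 16 higher and 4 to 9 lower in the first comparison. The causes of these differences were not tested. The share of counts taken by the members differed by -0.0044 percentage points between shDHX15+MYC and shDHX15, by 0.052 without mitochondrially encoded genes, where the groups no longer overlapped, and by 0.0097 without MYC in the total; against shcControl it was 0.14, 0.20 and 0.16.

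Members close to 0 changed sign without being called in the main analysis, except SRSF2, HNRNPA2B1, HNRNPR and HNRNPU in the second comparison and SRSF2, HNRNPA2B1, HNRNPD, HNRNPDL and HNRNPK in the third, which were called. Called lower there, most of them were called higher with total-count scaling. In the second comparison these were HNRNPA2B1, HNRNPR and HNRNPU (adjusted p = 0.00226, 0.00153 and 0.00983), but not SRSF2 (0.248). In the third they were SRSF2 (0.0177), HNRNPA2B1 (3.18e-06), HNRNPD (0.00036), HNRNPDL (0.0163) and HNRNPK (0.000335). With total-count scaling the log2 fold changes that turned from below 0 to above it were those of SRSF1 (0.062), SRSF2 (0.046), HNRNPC (0.017), HNRNPL (0.063), HNRNPUL2 (0.028) and PTBP1 (0.052) in the knockdown. In shDHX15+MYC against shDHX15 they were SRSF1 (0.19), SRSF2 (0.039), SRSF11 (0.15), HNRNPA2B1 (0.093), HNRNPK (0.18), HNRNPR (0.12), HNRNPU (0.097), HNRNPUL1 (0.18) and PTBP2 (0.095), and against shcControl SRSF1 (0.26), SRSF2 (0.086), HNRNPA2B1 (0.18), HNRNPD (0.14), HNRNPDL (0.086), HNRNPK (0.12) and HNRNPR (0.20). Of the members that turned, some not called in the main analysis were called higher with that scaling. These were SRSF1, SRSF11, HNRNPK and HNRNPUL1 over shDHX15 (adjusted p = 1.71e-05, 0.00315, 5.15e-06 and 0.00464) and SRSF1 and HNRNPR over shcControl (6.08e-07 and 5.16e-06). Members that were above 0 already also gained a call with it. In the knockdown they were SRSF4, TRA2A, HNRNPA2B1, HNRNPF, HNRNPR, HNRNPUL1 and SYNCRIP. With MYC they were SRSF10 over shDHX15 (7.74e-07), and HNRNPC, HNRNPUL1 and PTBP2 over shcControl (7.12e-09, 8.51e-06 and 0.00254). DESeq2 turned SRSF1 (0.033), HNRNPK (0.022) and HNRNPUL1 (0.016) in the second comparison and SRSF1 (0.029) in the third. Fitting only the 2 groups turned SRSF1 (0.015), HNRNPL (0.015) and PTBP1 (0.0048) in the first and SRSF1 (0.0063) in the second, thinning turned SRSF1 (0.0054) in the second, and PTBP2 in the third was -0.0087 with no filter and -0.010 with single-locus genes only. Over the libraries left out in turn, the ranges that crossed 0 in the first comparison were -0.039 to 0.014 for SRSF1, -0.056 to 0.010 for SRSF2, -0.055 to 0.10 for HNRNPAB, -0.012 to 0.0070 for HNRNPL, -0.066 to 0.0059 for HNRNPUL2, -0.0072 to 0.040 for SYNCRIP and -0.048 to 0.039 for PTBP1. In the second they were -0.031 to 0.022 for SRSF1, -0.083 to 0.0058 for SRSF11, -0.042 to 0.0054 for HNRNPK and -0.12 to 0.047 for HNRNPUL1, and in the third -0.045 to 0.039 for PTBP2. The log2 count ratio of HNRNPR to SYNCRIP ranged from -0.015 to 0.025 and that of PTBP1 to PTBP2 from -0.23 to 0.025 in the first comparison when libraries were left out.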
